A study of Homo sapiens with 12 samples.

Results

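The arrays compared here carry RNA of MDST8 and NCI-H716 cells that received both miR-200 gene clusters, set against the control array of the same line. Members were taken by sample title, which gave 4 of the 12 arrays of the series, 2 with both clusters and 2 controls. Both are established colorectal cancer lines in which, per the labels, the miR-200 loci are methylated. Cells with both clusters were first transduced with a lentivirus for miR-200ba429 (miR-200a, miR-200b and miR-429), sorted for green fluorescence after 48 hours, and given a lentivirus for miR-200c141 (miR-200c and miR-141) 24 hours after the sort. RNA was taken on day 7. None of the sources used here gives what the control cells received, whether a second sort followed the second virus, or whether arrays stand for separate cultures. Each group has 1 array per line, so p-values measure the spread between these arrays around a common change in both lines. The 4 arrays of the same lines with a single cluster entered the model to help estimate that spread.

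MicroRNAs of the miR-200 family pair through their seed, bases 2 to 8, with sites in messenger RNAs and lower the level or translation of those messages. Their best known targets are ZEB1 and ZEB2, transcription factors that bind E-box motifs and repress genes of epithelial adhesion and polarity, and ZEB1 and ZEB2 in turn repress both miR-200 clusters. Cells with little miR-200 and much ZEB1 tend to be mesenchymal in character. The 5 mature sequences of the clusters are shown with the seed in capitals, because the double transduction differs from the single ones in how these seeds are supplied.
hsa-miR-200c-3p: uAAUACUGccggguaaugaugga
hsa-miR-141-3p: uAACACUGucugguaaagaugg
hsa-miR-200b-3p: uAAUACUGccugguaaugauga
hsa-miR-200a-3p: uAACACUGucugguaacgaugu
hsa-miR-429: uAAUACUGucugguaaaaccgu
They were read from RefSeq (GRCh38.p14), where miR-200c and miR-141 lie at chr12:6963742-6963764 and chr12:6964155-6964176 and miR-200b, miR-200a and miR-429 at chr1:1167160-1167181, chr1:1167916-1167937 and chr1:1169055-1169076, all on the plus strand. Only 2 seeds occur. AAUACUG is shared by miR-200c, miR-200b and miR-429, and AACACUG by miR-141 and miR-200a. Each cluster therefore holds both seeds, and the cells with both clusters received no seed that a single cluster lacks. Levels of the mature microRNAs were not analysed here.

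Values are log2 intensities per gene, each from its brightest probe set. The background level was set at 5.429, the highest value of a nonspecific control probe set. Across genes, arrays correlated at 0.978 or more within a line and at 0.855 or less between lines. Before any construct, the lines differed in their epithelial markers. In MDST8 the controls of CDH1 (3.14), EPCAM (3.52), KRT19 (3.59), CLDN4 (2.97) and CLDN7 (3.95) all lay below background and KRT18 stood at 9.89. In NCI-H716 CDH1 lay below background (4.01), while EPCAM stood at 9.29, KRT19 at 7.68, CLDN4 at 7.44 and CLDN7 at 7.79. VIM, the mesenchymal filament protein, was bright in both controls (13.19 and 11.95). CDH2, also used as a mesenchymal marker, stood at 9.62 in the MDST8 control and below background in that of NCI-H716 (3.36).
On the arrays with both clusters ACTB signal of the 3′ over the 5′ probe set, a measure of RNA quality, was higher than in the control, at 2.019 against 1.539 in MDST8 and 2.626 against 2.327 in NCI-H716. For GAPDH it was 0.383 against 0.277 and 0.351 against 0.271. Arrays with a single cluster had ACTB differences of 1.497 and 1.515 in MDST8 and 2.405 and 2.374 in NCI-H716. The shift thus moves with the comparisons with control and with single clusters alike, and its part in the results was not tested.

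With both clusters, 242 genes fell and 120 rose against control among 19774 genes tested (limma, moderated two-sided test with cell line as a fixed term, Benjamini-Hochberg adjusted p under 0.05). That is 1.83% of genes, 1.22% lower and 0.607% higher. The genes that fell include known targets of the family and enzymes of lipid desaturation, and those that rose include keratins and proteins of vesicle fusion. All 362 changed in the same direction in both lines. The test itself favours this, since a change that differs between the lines widens the spread and seldom passes. The median change over all genes was −0.001. Typical sizes were alike in both directions, with a median of 2.18-fold among the falls and 2.22-fold among the rises. Of the falls, 235 started above background in both controls and 12 ended at background on both arrays with both clusters. Of the rises, 23 started at background in both controls, so their size is limited by background. Among these, 5 stayed at background on both arrays with both clusters as well. Of the 362 called genes, 355 lay above background on at least 1 of the 4 arrays.
Within a single line, where there is no replicate and no test, 632 genes (3.2%) were over 1 log2 unit higher in MDST8 and 737 (3.73%) lower. In NCI-H716 these were 557 (2.82%) and 561 (2.84%). Past that size, 89 genes (0.45%) were higher in both lines, 151 (0.764%) lower in both, and 33 (0.167%) opposite.
The count of calls depended on single arrays. It was 25 without the NCI-H716 control, 276 without the MDST8 control, 79 without the MDST8 array with both clusters and 959 without that of NCI-H716. All 362 genes kept their direction in each of these fits. They had been called for changes that were alike in both lines, so this largely follows from the call. Of the 62 called genes named by the rule used here, 6, 34, 15 and 51 kept their call in the same order.

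**Figure D1:**
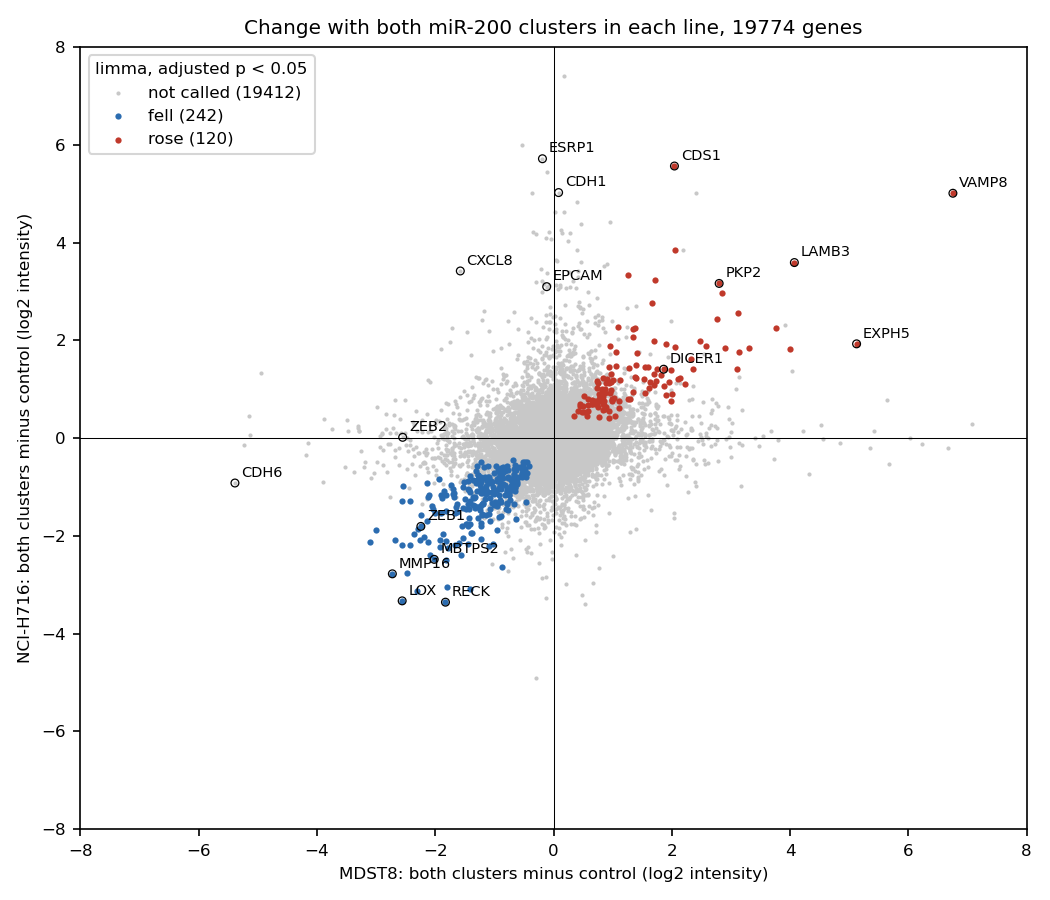
Change with both miR-200 clusters in MDST8 (horizontal axis) and NCI-H716 (vertical axis), each as the array with both clusters minus the control of the line in log2 intensity, for 19774 genes. The 242 genes that fell and the 120 that rose lie along the diagonal, where the test favours calls. CDH1, EPCAM and ESRP1, not called, lie at 3.10 or more in NCI-H716 and near 0 in MDST8.

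Known targets of the family were mostly lower. Of 49 measured genes on the target list, 9 fell and 0 rose, against 1.22% and 0.607% of all genes. The list median was −0.498, with −0.723 in MDST8 and −0.237 in NCI-H716, and 40 of 49 changes were negative. Like all 38 lists used here, it was written with earlier results of these arrays known, so its count is no independent evidence of direction.
ZEB1 stood at 9.39 in control MDST8 cells and 7.15 with both clusters, and at 10.14 and 8.34 in NCI-H716. It fell by 2.03 ± 0.31 on the log2 scale (SE, 2 arrays against 2, adjusted p = 0.0217) and stayed well above background on all arrays. ZEB2 went from 7.97 to 5.42 in MDST8, and in NCI-H716 its control lay below background (3.19, then 3.21). Its mean change of −1.27 ± 0.53 did not pass (adjusted p = 0.26), and other ZEB2 probe sets disagreed in MDST8. With both clusters, 1 of them stood at 5.07 against 6.99 in the control, and another at 7.16 against 4.33. QKI, an RNA-binding regulator of splicing, went from 9.83 to 8.26 in MDST8 and lay below background in NCI-H716 (4.46 and 3.61). Its change of −1.21 ± 0.42 did not pass (adjusted p = 0.18).

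Several of the called targets act on the actin cytoskeleton or on secretion. PPM1F, a phosphatase of cytoskeletal kinases, went from 8.51 to 6.42 in MDST8 and in NCI-H716 from 6.90 to 4.51, a fall of 2.24 ± 0.25 (adjusted p = 0.00884). CFL2, an actin-severing cofilin, went from 10.65 to 8.83 and from 10.98 to 8.48, a fall of 2.16 ± 0.26 (adjusted p = 0.0103). PPM1F ended below background in NCI-H716, and another PPM1F probe set gave −1.80 in MDST8 and −1 in NCI-H716. CFL2 stayed above background on all 4 arrays.
SEC23A, an inner coat protein of vesicles that leave the endoplasmic reticulum, went from 9.10 to 7.09 and from 10.80 to 9.26, a fall of 1.77 ± 0.25 (adjusted p = 0.0174). It was the only called member among 15 measured genes of that coat, or 6.67%, and their median was 0.249 with 12 positive changes. CRKL, a signalling adapter, fell by 1.06 ± 0.16 (adjusted p = 0.0205), WASF3, an actin nucleation factor, by 2.02 ± 0.37 (0.0389), and PLCG1, a phospholipase of receptor signalling, by 1.13 ± 0.23 (0.0471). Of 32 further genes of the actin and myosin cytoskeleton, which had 20 positive changes and a median of 0.121, 2 fell. That is 6.25%, against 1.22% of all genes called lower. The 2 were MYH10, a nonmuscle myosin heavy chain (−1.28 ± 0.18, adjusted p = 0.0184), and ARPC5, a subunit of the actin-branching complex (−1.01 ± 0.20, adjusted p = 0.0442). ARPC5 stood at −0.65 without the MDST8 array with both clusters (adjusted p = 0.116).
Other targets on the list barely moved. SUZ12, a Polycomb subunit, stood at −0.24 ± 0.12 (adjusted p = 0.326), BMI1, another Polycomb protein, at 0.02 ± 0.12 (0.946) and KEAP1, the inhibitor of NRF2, at −0.01 ± 0.16 (0.98).

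Among called genes above background in both controls, the largest falls reached 2.95 log2 units. LOX, a collagen-crosslinking enzyme, went from 9.05 to 6.49 in MDST8 and in NCI-H716 from 7.15 to 3.81, where it ended below background (−2.95 ± 0.35, adjusted p = 0.0101). Another LOX probe set stood at 8.31 in control MDST8 cells and 8.58 with both clusters, so only the brighter of these probe sets fell. MMP16, a membrane-bound matrix metalloproteinase, went from 8.23 to 5.51 and from 6.82 to 4.04 (−2.75 ± 0.28, adjusted p = 0.00739). In NCI-H716 MMP16 ended below background, so the size of its fall there is limited by background.
VASH2, a vasohibin, went from 7.14 to 4.83 and from 6.59 to 3.45 (−2.73 ± 0.52, adjusted p = 0.0439). RECK, a membrane inhibitor of metalloproteinases, went from 5.59 to 3.77 and from 8.13 to 4.77 (−2.59 ± 0.46, adjusted p = 0.0342). A protease and an inhibitor of proteases were thus both among the deepest falls. VASH2 and RECK ended below background in both lines, and the RECK control of MDST8 lay just above it. The sizes of their falls are therefore limited by background too.
The rest of the 10 were ZCCHC24 (−2.62 ± 0.39), OSTM1, a partner of a lysosomal chloride channel (−2.61 ± 0.35), PCDH18, a protocadherin (−2.45 ± 0.47), ZFTA (−2.43 ± 0.29), DPY19L1 (−2.38 ± 0.22) and B4GAT1, a glycosyltransferase that acts on dystroglycan (−2.38 ± 0.25), with adjusted p from 0.00715 for DPY19L1 to 0.0437 for PCDH18. PCDH18 stood at −1.62 without the MDST8 array with both clusters (adjusted p = 0.123). PCDH18 ended below background in both lines, and ZCCHC24 and ZFTA did so in NCI-H716. Other probe sets of DPY19L1 and RECK gave smaller falls, of 0.58 and 0.66.

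**Figure D2:**
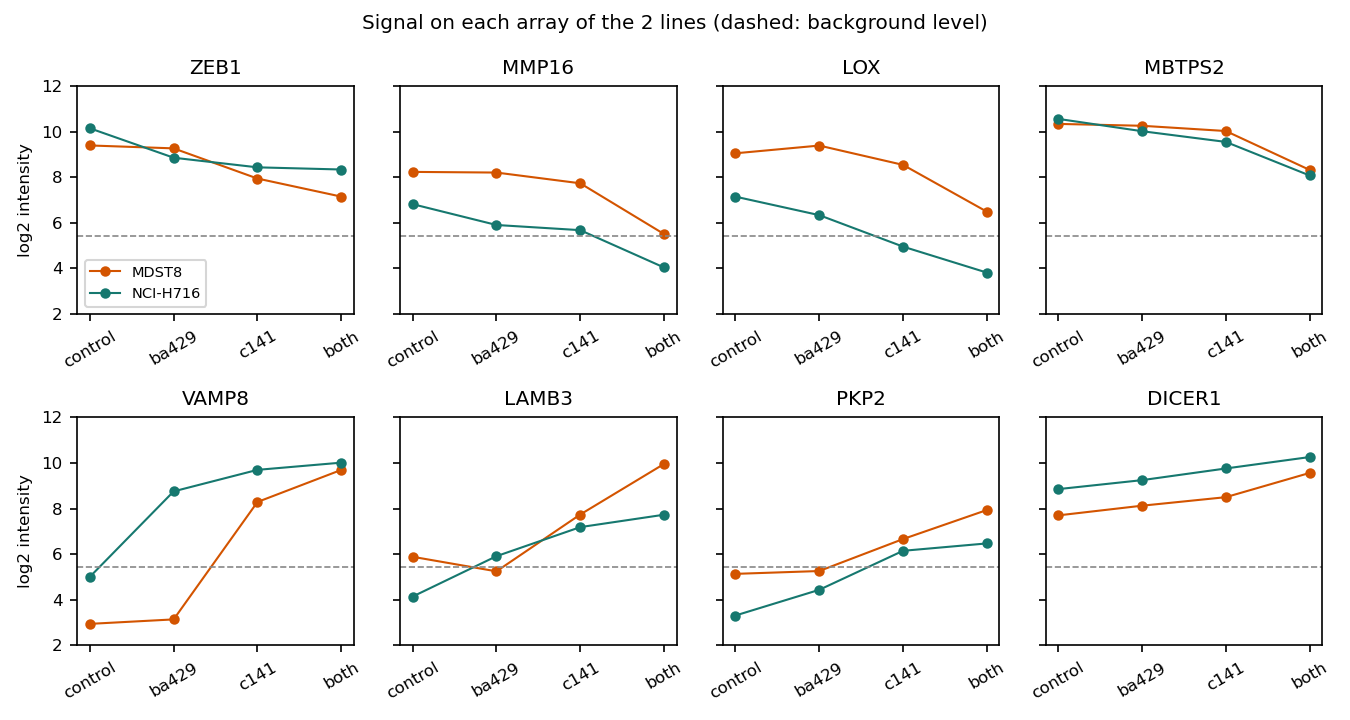
Log2 intensity of 8 genes on each array of MDST8 and NCI-H716 (control, miR-200ba429, miR-200c141, both clusters), with the background level dashed; lines only join the arrays of a cell line. MMP16, LOX and MBTPS2 are lowest, and VAMP8, LAMB3, PKP2 and DICER1 highest, on the array with both clusters in each line.

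Proteins of apical membrane traffic gave the largest called group among the rises. Of 24 measured genes of apical and exocytic vesicle traffic, 7 rose and 0 fell, against 0.607% of all genes called higher, with a median of 0.369 and 19 positive changes. This list too was written with earlier results of these arrays known, so its count is no independent evidence. VAMP8, a vesicle protein of regulated exocytosis, stood at 2.95 in control MDST8 cells and 9.70 with both clusters, and at 5.01 and 10.02 in NCI-H716. Both controls lay below background and both arrays with both clusters far above it, a rise of 5.88 ± 0.97 (adjusted p = 0.0276).
EXPH5, an effector of RAB27 on secretory vesicles, went from 3.81 to 8.94 and from 5.08 to 7.01 (3.52 ± 0.71, adjusted p = 0.0487), and stood at 2.17 without the MDST8 array with both clusters (adjusted p = 0.147). ARL14, a small GTPase of vesicle movement, rose by 3.00 ± 0.55 (adjusted p = 0.0389) from background in both controls. RAB11FIP1, MYO5B and STX3 started above background in both controls, and AP1S3 below it. Another RAB11FIP1 probe set gave 0.55. RAB11FIP1, an effector of recycling endosomes, rose by 1.67 ± 0.26 (adjusted p = 0.0231), the apical motor MYO5B by 1.55 ± 0.23 (0.0206), the apical fusion protein STX3 by 1.41 ± 0.23 (0.0272) and AP1S3, a subunit of a clathrin adaptor, by 1.30 ± 0.24 (0.0389).

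Keratins, the filament proteins of epithelia, were also among the rises. Of 11 measured keratins, 4 rose and 0 fell, against 0.607% of all genes called higher, with a median of 0.755. All 7 above background on at least 1 of the 4 arrays had positive changes. The keratin list was likewise written with earlier results known. KRT18, a keratin of simple epithelia, went from 9.89 to 11.79 in MDST8 and in NCI-H716 from 11.42 to 12.30 (1.39 ± 0.25, adjusted p = 0.0353). Its partner KRT8 went from 4.61 to 5.58 and from 9.59 to 10.73 (1.06 ± 0.17, adjusted p = 0.0261), near background in MDST8. KRT15 rose by 1.53 ± 0.27 (adjusted p = 0.0337) and KRT7, a keratin of ducts and glands, by 2.25 ± 0.44 (0.0447), the latter at 1.40 without the MDST8 array with both clusters. KRT7 lay below background in both controls (4.13 in MDST8 and 4.06 in NCI-H716). With both clusters it stood just above background in NCI-H716 (5.47).
PKP2, a plaque protein of desmosomes, went from 5.14 to 7.94 and from 3.31 to 6.48 (2.98 ± 0.35, adjusted p = 0.00997). It was the only call among 12 desmosomal genes (median 0.175), or 8.33%. LAMB3, a laminin chain of the epithelial basement membrane, went from 5.89 to 9.96 and from 4.14 to 7.74 (3.83 ± 0.57, adjusted p = 0.0208). It was likewise the only call among 18 laminins, integrins and hemidesmosome genes (median 0.084), or 5.56%.
Of 22 tight junction and polarity genes, 0 were called, 19 had a positive change and the median was 0.619. PATJ, a tight junction scaffold, had the smallest p of that list, with 3.49 and 7.42 in MDST8 and 5.04 and 7.36 in NCI-H716 (3.12 ± 0.70, adjusted p = 0.0649). LLGL2, a basolateral polarity protein, stood at 1.22 ± 0.30 (adjusted p = 0.0845). Among 17 epithelial transcription factors KLF4, a factor of differentiating gut epithelium, rose from 6.70 to 8.05 and from 10.08 to 11.02 (1.14 ± 0.20, adjusted p = 0.0364) and the list median was 0.160. KLF4 was the only call of that list, or 5.88%, against 0.607% of all genes called higher.
Other large rises were those of TMC4, a channel-like membrane protein (2.96 ± 0.53, adjusted p = 0.0368, and 1.86 without the NCI-H716 control), TMEM45A (2.91 ± 0.44, 0.0215) and SPNS2, the exporter of sphingosine 1-phosphate (2.84 ± 0.31, 0.00884). TMC4, TMEM45A and SPNS2 lay below background in both controls, so the sizes of their rises are limited by background.

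The adhesion genes most often used to mark an epithelial state split between the lines. CDH1, the epithelial cadherin, was at 3.14 and 3.23 in MDST8, both below background, and went from 4.01 to 9.03 in NCI-H716 (2.55 ± 1.00, adjusted p = 0.233). EPCAM, an epithelial adhesion molecule, was at 3.52 and 3.41 in MDST8 and went from 9.29 to 12.38 in NCI-H716 (1.49 ± 0.65, adjusted p = 0.278). ESRP1, a splicing regulator of epithelial cells, was at 3.50 and 3.31 in MDST8 and went from 3.13 to 8.85 in NCI-H716 (2.76 ± 1.11, adjusted p = 0.243). These 3 genes gained 3.10 to 5.71 log2 units in NCI-H716 while MDST8 stayed at background. With 1 array per group and line, the difference between lines was not tested.
Of 15 genes of cadherins and adherens junctions, 0 were called (median 0.193). CDH6, a cadherin of kidney and of mesenchymal cells, stood at 9.47 and 4.08 in MDST8 and at 7.99 and 7.07 in NCI-H716 (−3.15 ± 0.86, adjusted p = 0.108). Its size came mostly from MDST8. CDH2, the neural cadherin, stood at −0.21 ± 0.25 (adjusted p = 0.717) and VIM at −0.75 ± 0.21 (0.111). CDH2 was at 9.62 and 9.73 in MDST8 and below background in NCI-H716 (3.36 and 2.83). VIM changed by −0.24 in MDST8 and by −1.26 in NCI-H716.

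Lists of mesenchymal genes gave isolated calls. Of 30 measured mesenchymal markers, LOX fell and none rose, or 3.33%, against 1.83% of all genes called. The list had 14 positive and 16 negative changes and a median of −0.054. Among 16 transcription factors of the epithelial to mesenchymal transition, ZEB1 alone was called (6.25%), and 9 lay above background on at least 1 of the 4 arrays. Those 9 had 6 negative changes and a median of −0.958. SNAI2 and TWIST1, other repressors of that class, were bright in MDST8 and unmoved there, at 10.74 and 10.73 for SNAI2 and 9.84 and 9.83 for TWIST1. PRRX1, a mesenchymal homeobox factor, was at 9.94 and 6.04 in MDST8 and 8.55 and 7.64 in NCI-H716 (−2.40 ± 0.61, adjusted p = 0.0884).
Of 22 collagens and collagen enzymes, 1 rose, the prolyl hydroxylase subunit P4HA2 (1.68 ± 0.28, adjusted p = 0.0303, and 1.11 with adjusted p = 0.0964 without the NCI-H716 control), and the median was 0.067. Another P4HA2 probe set gave 0.44. MMP16 was the only call among 25 matrix proteases and inhibitors (median 0.191). Calls made up 4.55% of the collagen list and 4% of the protease list. Of that list SPINT1 and SPINT2, inhibitors of epithelial surface proteases, stood at 2.19 and 2.62 without a call.

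The promoters of the rises were searched for the E-box that ZEB1 and ZEB2 bind, read as CAGGTG or CACCTG, which are the same site on opposite strands, in the 250 bases before the start of each gene. RefSeq windows were found for 98 of the 120 rises, and 22 of them held the motif, or 22.4%. Of 205 windows of genes that fell, 17 held it, or 8.29%. The share was 16.8% over the 15399 windows of all tested genes and 15.3% over the 9239 of genes above background on at least 1 of the 4 arrays. These shares are a description, and a match is not a site shown to be bound. Among the 10 largest rises, windows were found for 7, and LAMB3, CDS1, TMC4 and ELOVL7 held the motif. The first 3 by size of rise are printed 5′ to 3′ on the strand of the gene, with the motif in capitals. They lie on GRCh38.p14 at chr1:209652426-209652675 (LAMB3, minus strand), chr4:84582877-84583126 (CDS1, plus strand) and chr19:54173161-54173410 (TMC4, minus strand).
LAMB3: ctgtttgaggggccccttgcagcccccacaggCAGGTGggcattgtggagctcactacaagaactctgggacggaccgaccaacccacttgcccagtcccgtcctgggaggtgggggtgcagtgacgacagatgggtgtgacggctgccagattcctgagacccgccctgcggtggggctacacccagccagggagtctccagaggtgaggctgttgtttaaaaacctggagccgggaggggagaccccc
CDS1: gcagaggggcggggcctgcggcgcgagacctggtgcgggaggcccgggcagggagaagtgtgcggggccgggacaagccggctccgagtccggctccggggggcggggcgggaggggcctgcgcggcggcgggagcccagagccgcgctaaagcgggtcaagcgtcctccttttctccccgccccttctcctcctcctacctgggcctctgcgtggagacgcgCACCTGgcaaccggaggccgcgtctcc
TMC4: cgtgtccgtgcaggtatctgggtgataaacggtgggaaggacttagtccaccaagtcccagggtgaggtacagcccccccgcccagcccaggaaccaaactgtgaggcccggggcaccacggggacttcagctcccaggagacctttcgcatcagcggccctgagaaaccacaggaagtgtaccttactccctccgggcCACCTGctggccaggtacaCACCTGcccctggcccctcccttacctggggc
The motif began 218 bases before the start in LAMB3, 27 before it in CDS1, and 51 and 32 before it in TMC4.

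Enzymes of membrane lipids moved in both directions. Of 19 measured lipid enzymes, 2 rose and 3 fell, against 1.83% of all genes called. ELOVL7, which elongates fatty acids, went from 5.29 to 8.13 in MDST8 and in NCI-H716 from 3.39 to 6.35 (2.90 ± 0.32, adjusted p = 0.00884). CDS1, which makes the precursor of phosphatidylinositol, went from 6.94 to 8.98 and from 3.11 to 8.68 (3.81 ± 0.72, adjusted p = 0.0426, and 2.14 without the NCI-H716 control). Its paralog CDS2 went the other way, from 8.26 to 7.06 and from 7.52 to 6.46 (−1.13 ± 0.20, adjusted p = 0.0378). Another CDS2 probe set stood at 8.02 and 7.71 in MDST8 and at 6.24 and 6.29 in NCI-H716, a mean change of −0.128.
SCD, which introduces the first double bond into fatty acids, went from 11.87 to 9.44 and from 11.91 to 10.63 (−1.85 ± 0.27, adjusted p = 0.0205), and another SCD probe set fell further, by 3.16. FADS1, a desaturase of polyunsaturated fatty acids, went from 10.21 to 8.53 and from 8.23 to 7.03 (−1.45 ± 0.18, adjusted p = 0.012). FASN, the fatty acid synthase, stood at −0.83 ± 0.18 (adjusted p = 0.0582).
Among 23 genes of cholesterol synthesis and its control, 2 fell and 0 rose, against 1.22% of all genes called lower, and 19 changes were negative, with a median of −0.614 in MDST8 and −0.010 in NCI-H716. MBTPS2, the protease that makes the second cut in the release of SREBP transcription factors, went from 10.34 to 8.32 and from 10.56 to 8.07. It fell by 2.25 ± 0.16 (adjusted p = 0.00345) and had the smallest p of any falling gene. SREBF1, which encodes such a factor, went from 7.17 to 6.40 and from 8.93 to 7.46 (−1.12 ± 0.21, adjusted p = 0.0439). The enzymes LSS and FDPS stood at −0.57 ± 0.13 (adjusted p = 0.0658) and −0.71 ± 0.17 (0.0791).

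Genes of the cell cycle were lower by less than 1 log2 unit for the most part. Of 33 DNA replication genes, 32 had a negative change, with a median of −0.510 (−0.572 in MDST8 and −0.494 in NCI-H716), and 0 were called. Of 41 genes of mitosis and the spindle, 40 had a negative change, with a median of −0.418 (−0.646 and −0.285), and 2 fell, against 1.22% of all genes called lower. CCNB2, a mitotic cyclin, went from 9.78 to 8.96 and from 11.08 to 10.40 (−0.75 ± 0.13, adjusted p = 0.0326). BUB1B, a spindle checkpoint kinase, went from 9.66 to 8.35 and from 9.81 to 9.14 (−0.996 ± 0.20, adjusted p = 0.047), and stood at −0.65 without the MDST8 array with both clusters (0.138). MCM2, a subunit of the replicative helicase, was at 8.20 and 6.85 and at 9.65 and 8.76 (−1.12 ± 0.23, adjusted p = 0.0541), and MCM5 at −0.91 ± 0.20 (0.064).
With the single clusters the medians were closer to 0 or positive. With miR-200ba429 alone the medians in MDST8 were 0.294 for replication and 0.359 for mitosis, and with miR-200c141 alone −0.189 and −0.097. In NCI-H716 they were −0.242 and −0.027 with miR-200ba429 and −0.059 and −0.064 with miR-200c141. These changes use the same control arrays as those with both clusters. The 3′ to 5′ differences given above were highest on the same arrays as the lower cell cycle signals, and this was not tested. Ribosomal proteins, 31 bright genes measured on the same arrays, had a median of −0.034.

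**Figure D3:**
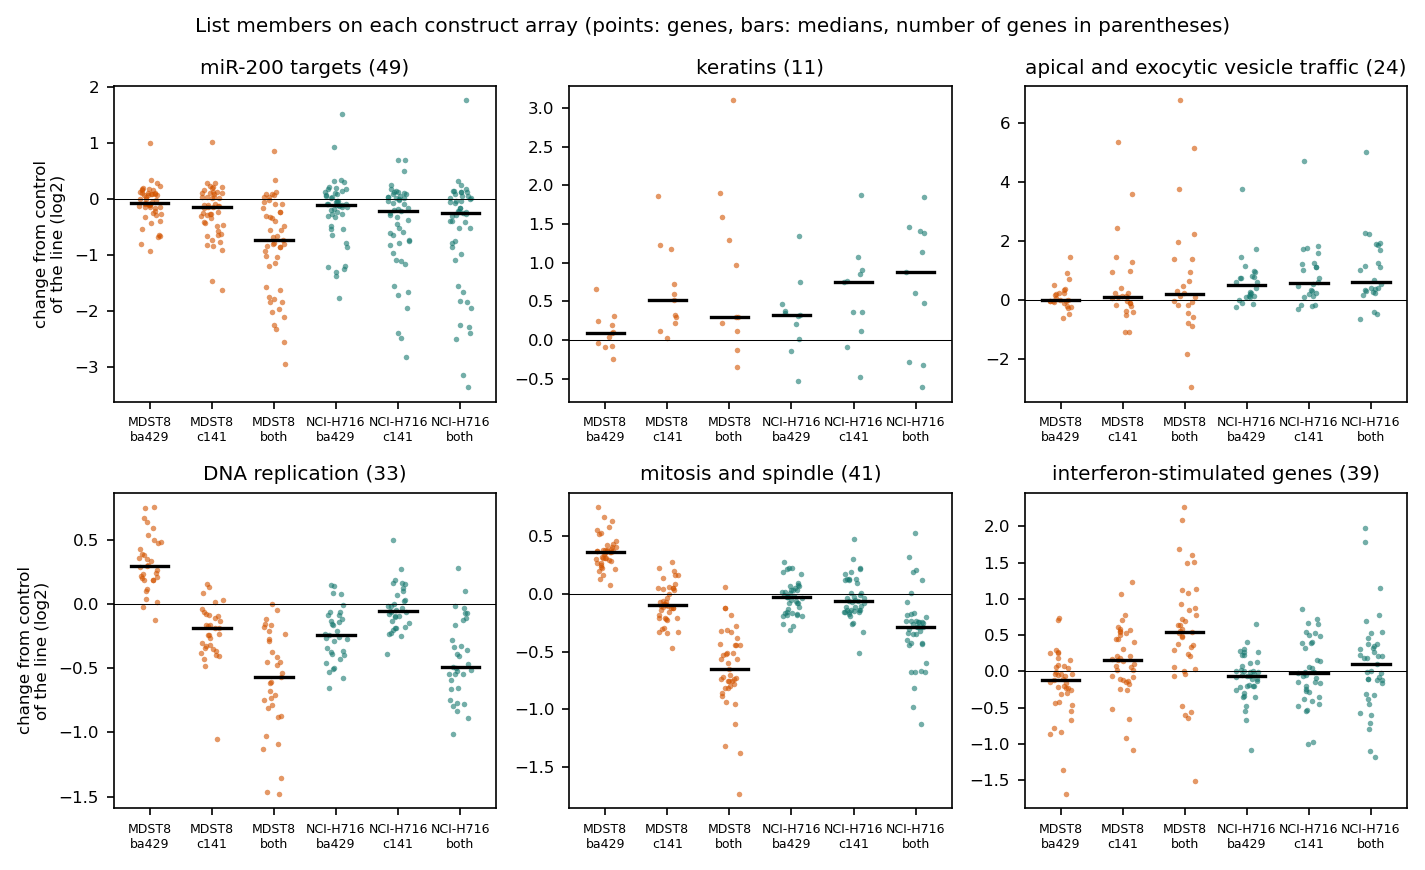
Change from the control of the line (vertical axis, log2) of each member of 6 gene lists on the arrays with miR-200ba429, miR-200c141 and both clusters of MDST8 and NCI-H716; points are genes and bars medians, and vertical scales differ between panels. Replication and mitosis genes lie lowest with both clusters (medians −0.572 and −0.646 in MDST8), and in MDST8 mostly above 0 with miR-200ba429.

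Calls among signalling pathways differed from list to list. In the TGF-beta and BMP pathway the receptor TGFBR1 fell by 0.79 ± 0.15 (adjusted p = 0.0447) and the signal transducer SMAD5 by 0.66 ± 0.13 (0.0447), while the activin receptor ACVR2A rose by 0.92 ± 0.19 (0.0479). These were the calls among 30 genes measured (median −0.151), or 10%, against 1.83% of all genes. Another ACVR2A probe set stood at −0.22. In the Hippo pathway the kinase STK4 fell from 9.86 to 9.19 and from 9.72 to 9.09 (−0.65 ± 0.12, adjusted p = 0.0425), with another, dimmer STK4 probe set at 0.54. It was the only call of 21 Hippo genes, or 4.76% (median −0.250).
No gene was called among 20 of the Notch pathway, where the DNA-binding factor RBPJ stood at −0.53 ± 0.11 (adjusted p = 0.0591) and the receptor NOTCH1 at −1.02 ± 0.31 (0.142). The same held for 11 ERBB receptors and ligands, all with positive mean changes (median 0.303, with 0.682 in MDST8 and 0.07 in NCI-H716, where 6 were positive), where the receptor ERBB3 stood at 1.63 ± 0.39 (adjusted p = 0.0776) and the ligand NRG1 at 0.30 ± 0.21 (0.518). It also held for 16 Wnt targets, where EPHB3, a guidance receptor, stood at −1.04 ± 0.29 (0.112) and the cyclin CCND1 at 0.30 ± 0.09 (0.145). Unadjusted p under 0.05 was found for 3490 of all genes.

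A few stress genes were called. ATF3, a stress-induced transcription factor, went from 5.31 to 7.78 in MDST8 and in NCI-H716 from 5.87 to 7.86 (2.23 ± 0.30, adjusted p = 0.0138). DDIT4, an inhibitor of mTOR signalling, went from 9.35 to 7.69 and from 10.24 to 8.70 (−1.60 ± 0.22, adjusted p = 0.0167). PHGDH, the first enzyme of serine synthesis, went from 7.75 to 6.56 and from 8.43 to 7.10 (−1.26 ± 0.18, adjusted p = 0.0194). On the list of 20 stress and mTOR genes these were the 3 calls, against 1.83% of all genes. Over the alternative settings ATF3 ranged from 0.656 to 2.66, DDIT4 from −1.729 to −1.555 and PHGDH from −1.377 to −1.152.
SESN1, a p53-induced regulator of mTOR, fell by 1.36 ± 0.23 (adjusted p = 0.0291). It was the only call among 18 p53 targets (median 0.141), or 5.56%. GCLM, the modifier subunit of glutamate-cysteine ligase in glutathione synthesis, rose by 1.03 ± 0.18 (adjusted p = 0.0307), the only call of 19 NRF2 targets, or 5.26%. AKR1B10 of the same list stood at 3.71 ± 0.78 (adjusted p = 0.057). Of 15 hypoxia genes 0 were called. The glucose transporter SLC2A1 of that list stood at 1.54 ± 0.35 (0.0649) and the glycolytic enzyme PGK1 at −0.26 ± 0.07 (0.112).

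Interferon-stimulated genes were mostly higher in MDST8. Of 39 measured, 1 rose, or 2.56%, against 0.607% of all genes called higher. In MDST8 32 were positive (median 0.550), against 20 in NCI-H716 (0.099). The call was IFI27, which went from 2.88 to 4.58 and from 3.65 to 5.63 (1.84 ± 0.22, adjusted p = 0.0103), below background except on the NCI-H716 array with both clusters. ISG15, a ubiquitin-like protein, stood at 1.19 ± 0.25 (adjusted p = 0.057). Of 18 antigen processing genes 0 were called (median 0.171). The peptide-trimming protease ERAP1 stood at 0.83 ± 0.17 (adjusted p = 0.0551) and the chaperone PDIA3 at 0.22 ± 0.07 (0.161).

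Chromatin and RNA-processing genes gave isolated calls. TET1, an enzyme that oxidises methylated cytosine, went from 5.68 to 4.27 and from 7.09 to 4.01, to below background in both lines (−2.25 ± 0.38, adjusted p = 0.0307), with another TET1 probe set at −0.81. It was the only call among 13 DNA methylation enzymes, or 7.69%, against 1.83% of all genes called. Their median was 0.157 over mean changes but −0.046 and −0.147 within MDST8 and NCI-H716. PCGF5, a subunit of a variant Polycomb complex, rose by 1.09 ± 0.22 (adjusted p = 0.0491), alone among 22 Polycomb genes (4.55%). KHDRBS3, a splicing regulator, fell by 0.77 ± 0.14 (adjusted p = 0.0384), alone among 16 (6.25%).
DICER1, the ribonuclease that cuts microRNA precursors, went from 7.71 to 9.57 and from 8.86 to 10.27. It rose by 1.64 ± 0.16 (adjusted p = 0.00739) and was the only call among 14 genes of the RNA silencing machinery (median 0.019), or 7.14%. MIR22HG, the host transcript of another microRNA, had the smallest p of all genes and was named after its values were seen, with 7.96 and 9.85 in MDST8 and a rise of 1.91 ± 0.12 (adjusted p = 0.00272).

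Genes of differentiated cells were examined for other cell types. Of 30 intestinal differentiation genes 0 were called, and 22 were positive in NCI-H716 (median 0.441) against 18 in MDST8 (0.060). The secreted lectin REG4 was at 4.51 and 9.13 in NCI-H716 and at background in MDST8 (2.40 ± 0.82, adjusted p = 0.178), and the mucin MUC1 stood at 1.78 ± 0.56 (0.145). Of 17 enteroendocrine and neural markers TPH1, an enzyme of serotonin synthesis, was called (0.87 ± 0.17, adjusted p = 0.0447) with all its values below background. That is 5.88% of the list, against 0.607% of all genes called higher. Summed signal of that list was 1826 with both clusters and 1760 in the control of MDST8, and 20034 and 22178 in NCI-H716.
Of 12 immune markers only LYZ, lysozyme, lay above background, in NCI-H716 (7.97 and 10.65), and PTPRC stayed below it on all 4 arrays. Their summed signal was 121 with both clusters and 125 in the control of MDST8 and 1710 and 363 in NCI-H716. Of 10 endothelial markers only ROBO4 was above it, on the MDST8 array with both clusters (6.68), and PECAM1 was below it throughout. Summed endothelial signal was 180 and 106 in MDST8 and 89 and 97 in NCI-H716. The RPL3 and RPS9 ribosomal proteins, the smallest p of their list, stood at −0.26 ± 0.07 and −0.29 ± 0.09 (adjusted p = 0.127 for both).

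**Figure D4:**
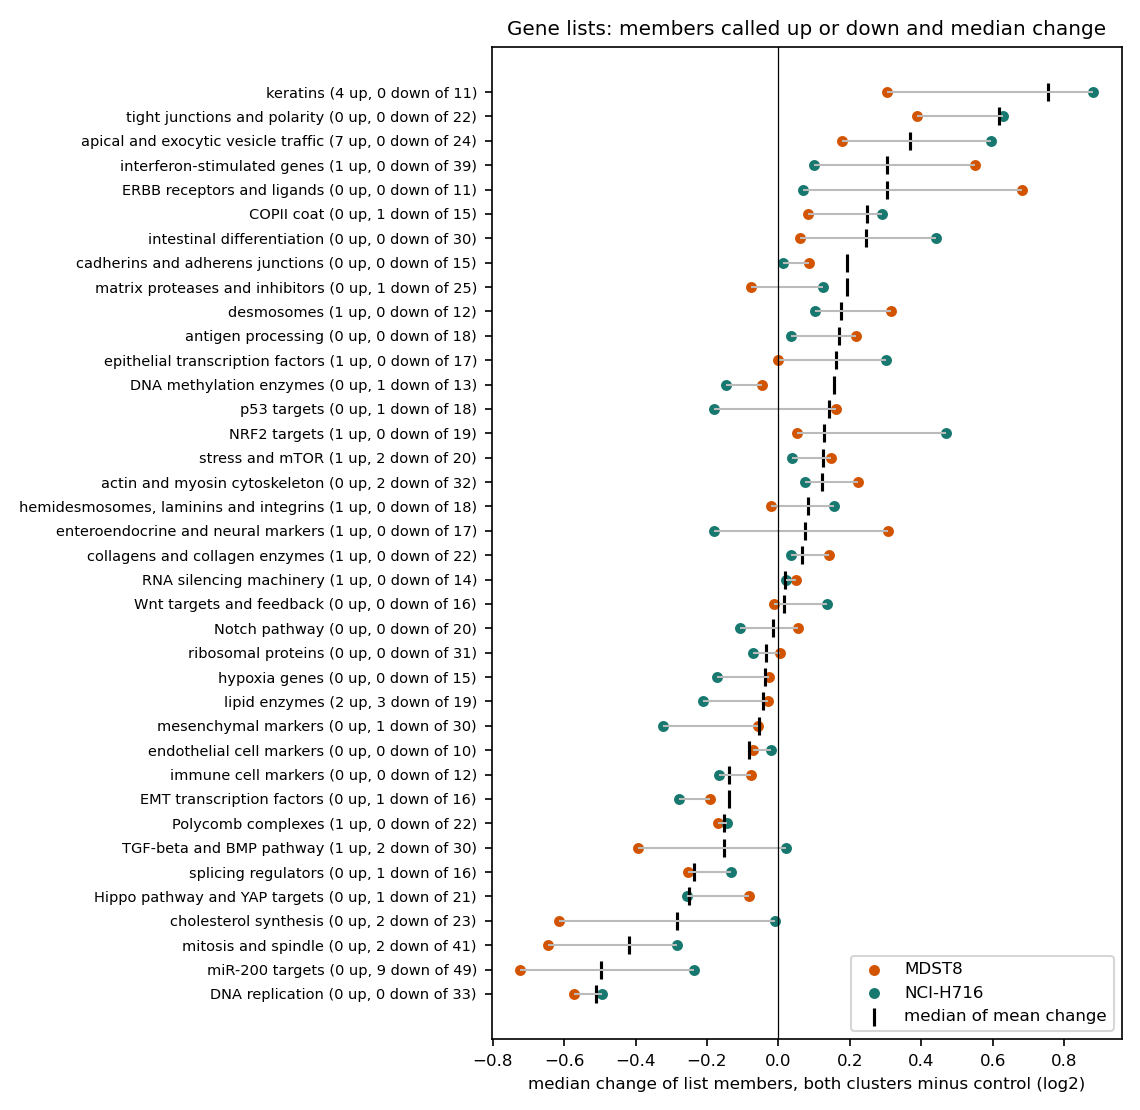
Median change with both clusters (horizontal axis, log2) of 38 gene lists in MDST8, in NCI-H716 and over the mean of both lines, with the number of members called up or down in each label. DNA replication genes (−0.510) and miR-200 targets (−0.498) lie lowest and keratins (0.755) highest.

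A second comparison asked where cells with both clusters differed from cells of the same lines with a single cluster. The cells with both clusters also received a second lentivirus after the sort, and no second virus is given for the others. A second exposure to virus and the presence of both clusters cannot be told apart here. The contrast uses no control value directly, but comes from the same model, in which the controls help set the line terms and the spread. Against the mean of the single clusters, 75 genes were lower and 10 higher with both, or 0.379% and 0.0506% of genes and 0.43% in all (limma, adjusted p under 0.05). The lower genes again included targets, among them CFL2 (−1.59 ± 0.23, adjusted p = 0.0331), PPM1F (−1.37 ± 0.21, 0.0439) and SEC23A (−1.43 ± 0.22, 0.0416).
The 5 deepest were LOX (−2.15 ± 0.30, adjusted p = 0.0318), MMP16 (−2.11 ± 0.24, 0.0185), ZFTA (−1.92 ± 0.25, 0.0232), DPY19L1 (−1.84 ± 0.19, 0.0156) and POGLUT2, an enzyme that adds glucose to secreted proteins (−1.83 ± 0.24, 0.0232). MMP16 shows the pattern in MDST8, with 8.23 in the control, 8.20 with miR-200ba429, 7.73 with miR-200c141 and 5.51 with both. In NCI-H716 its values in the same order were 6.82, 5.90, 5.68 and 4.04.
ZEB1 was at 9.39, 9.26, 7.94 and 7.15 in MDST8 in that order and at 10.14, 8.85, 8.43 and 8.34 in NCI-H716. Its difference from the single clusters of −0.88 ± 0.27 did not pass (adjusted p = 0.224). MBTPS2 (−1.76 ± 0.14, adjusted p = 0.0156), SCD (−1.70 ± 0.24, 0.0318) and FADS1 (−1.01 ± 0.16, 0.0444) were lower than with single clusters, as was CCNB2 (−0.75 ± 0.11, 0.037).
Higher with both were SPNS2 (1.88 ± 0.27, adjusted p = 0.0318), IFI27 (1.80 ± 0.19, 0.0156), the immediate early factor EGR1 (1.66 ± 0.21, 0.0232), PRRG4, a membrane protein with a Gla domain (1.64 ± 0.26, 0.0444), DDX60L, a paralog of the helicase DDX60 (1.41 ± 0.23, 0.0446), and DICER1 (1.00 ± 0.14, 0.0318). In NCI-H716 PRRG4 lay below background on every array, at 4.48 with both clusters. SPNS2 lay below background in both controls (2.63 in MDST8 and 4.51 in NCI-H716). EGR1 was at 4.86, 4.39, 4.98 and 6.41 in MDST8 and at 7.07, 6.92, 6.94 and 8.53 in NCI-H716, and so stood apart only on the array with both clusters. VAMP8, at 9.70 with both clusters against 8.29 with miR-200c141 and 3.14 with miR-200ba429 in MDST8, did not pass against single clusters (2.38 ± 0.84, adjusted p = 0.285). The count was 2 without the MDST8 array with both clusters and 622 without that of NCI-H716.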

How the data were processed

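Gene expression was measured by the authors on Affymetrix U133 Plus arrays. What they deposited is a log2 intensity for each probe set, computed by RMA per the submitters' processing notes. RMA quantile normalizes arrays after background correction. Its version and settings are not stated in the sources used. Probe sets naming 1 gene (40914 of 54715) were kept, the brightest over the 12 arrays stood for each of 19774 genes, and 864 naming several genes were left out.

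limma 3.58.1 in R 4.3.3 was fitted to the 8 arrays of MDST8 and NCI-H716 with group and cell line as terms and 3 residual degrees of freedom; eBayes let the variance follow the level, and p-values were adjusted by Benjamini-Hochberg with a threshold of 0.05. In this balanced fit a change is the mean of the differences within the lines. Arrays are paired by line, as arrays of a line correlate at 0.978 or more. HUTU-80, which has no array with both clusters, entered only as an alternative, since an unbalanced fit would let it move the estimate. The number of arrays limits the precision.

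On simulated data for both clusters against control, over 19774 genes, 57% of changes of 1 log2 unit and 100% of changes of 2 were recovered, with 16 false calls. Each size was given to 100 genes. Noise was normal and independent between arrays, with the spread estimated by the fit, and no response particular to a line or shift in RNA quality was included. These rates hold for that setting and do not give the error rate in the real arrays.

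The members, the 38 gene lists (865 genes, 813 measured) and the tests were chosen with earlier results of these data known. Named genes are 8 fixed markers, the 10 largest called falls above background in both controls, the 10 largest called rises above it on both arrays with both clusters, up to 4 called members of each list by p (2 where none was called), the 5 genes most opposite in the lines, and the 5 largest differences from single clusters in each direction. Some further list members are named by size or role after their values were seen. Promoter windows were cut from RefSeq (GRCh38.p14).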

Additional observations from a re-analysis of the deposited data

Results flagged for a closer look

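The 5 genes with the largest opposite changes in the lines are given as values; with 1 array per group and line the difference between lines was not tested. CXCL8, a chemokine that attracts neutrophils, went from 9.83 to 8.25 in MDST8 and in NCI-H716 from 3.84 to 7.26, so that the change in MDST8 minus that in NCI-H716 was −4.995. Another CXCL8 probe set went from 6.45 to 4.09 in MDST8 and stayed below background in NCI-H716 (3.09 and 4.04). CALML4, a calmodulin-like protein, went from 6.41 to 4.95 and from 7.91 to 10.08, a difference of −3.627. SYNJ2, a phosphoinositide phosphatase, went from 9.07 to 7.68 and from 6.17 to 7.88, a difference of −3.093. NANOS1 went from 3.76 to 5.79 and from 6.14 to 4.50, a difference of 3.672, and FRY from 4.93 to 6.59 and from 7.97 to 6.50, a difference of 3.127. Another FRY probe set, brighter in NCI-H716, gave 1.277 in MDST8 and 0.029 in NCI-H716, with no opposite change. These genes were chosen for this pattern.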

How the results depend on the processing

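Against control, 362 genes were called (120 higher, 242 lower). With HUTU-80 added the count was 1214 (461 and 753) as 11 samples and 1481 (589 and 892) as 12 arrays. Averaging every probe set of a gene gave 118 (38 and 80). It was 555 (195 higher) over genes above background on at least 2 arrays, 12 (6 and 6) without the variance trend, and 7 (3 and 4) with only the 4 control and both-cluster arrays. Without pairing by line, that is with no replicate block, it was 0 (0 higher, 0 lower), with 563 unadjusted p under 0.05. Leaving out 1 array gave 25 to 959 (9 to 421 higher, 16 to 538 lower). With the highest-variance probe set, centring or renewed quantile normalization it stayed within 1.5 times. All 362 kept their direction except 1 when probe sets were averaged and 12 with the highest-variance probe set, and 12 that the filter removed were not tested there.

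Against single clusters, 85 genes were called (10 and 75). The count was 329 (54 and 275) and 509 (116 and 393) with HUTU-80 as 11 samples and 12 arrays, 9 (5 and 4) when probe sets were averaged, 128 (18 higher) with the highest-variance probe set and 47 (40 lower) with centring. It was 0 (0 and 0) with no replicate block and 0 (0 and 0) without the variance trend, with 454 and 2384 unadjusted p under 0.05. Only control arrays and arrays with both clusters were left out in turn. The arrays with a single cluster, the other side of this contrast, were always kept. Leaving out 1 array gave 2 to 622 (1 to 268 higher, 1 to 354 lower).

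Signs turned for 9 named genes. With the highest-variance probe set VIM was at 0.218 and STK4 at 0.542, and, averaging all probe sets, ERAP1 was at −0.019. FRY was at −0.003 with 12 arrays. Without the NCI-H716 control CXCL8 was at −1.003, CALML4 at −0.603 and SYNJ2 at −1.022. Without the NCI-H716 array with both clusters CDH2 was at 0.032, CXCL8 at −0.486, CALML4 at −1.104 and SYNJ2 at −0.726. Without the MDST8 control NANOS1 was at −1.273 and FRY at −1.196, and without its array with both clusters at −0.786 and −0.704. Over the fits that leave out 1 array, CDH2 ran from −0.456 to 0.032, CXCL8 from −1.003 to 2.844, CALML4 from −1.104 to 1.815, SYNJ2 from −1.022 to 1.336, NANOS1 from −1.273 to 1.662 and FRY from −1.196 to 1.38. The cause was not tested. Fits that leave out 1 array leave 1 sample in its group, which is assumed to vary like the others.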
